A study of Homo sapiens with 6 samples.

Results

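Transcripts of Polycomb repressive complex 2 (PRC2) were described here in SH-SY5Y cells, a human neuroblastoma line, 72 h after transfection with OE-circSHPRH or OE-NC. The 10 genes are PHF19 and 9 other core or accessory subunits (EZH2, EZH1, SUZ12, EED, RBBP7, MTF2, PHF1, JARID2 and AEBP2), taken by gene name from a table of 28752 genes. All 10 were in the table, and all 10 passed the filter on low counts that left 16458 genes for testing. PHF19 was chosen by its adjusted p and fold change between the same 2 groups, so its own difference is given as a description. The other subunits were listed for their place in the complex, but also with the results of this contrast known. Each group had 3 libraries. The series title describes circ-SHPRH, a circular RNA of the SHPRH gene, as encoding a short protein. OE and NC are not written out in the labels, and OE-NC is read here as the negative control. The construct, its promoter and whether replicates were separate cultures are not stated either, so each p-value reflects the spread among these libraries, which may be technical.

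PRC2 places methyl groups on histone H3 (the H3K27 mark) and is known for keeping developmental genes silent. EZH2 or its paralog EZH1 is the catalytic subunit, SUZ12 the scaffold, EED the reader of the finished mark, and RBBP7 or RBBP4 a histone-binding subunit. Accessory subunits split the complex into forms with a Polycomb-like protein (PHF19, MTF2 or PHF1), which bring it to CpG-rich DNA, and forms with JARID2 and AEBP2. EZH2 is known as a growth-promoting gene of neuroblastoma.

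Total counts per library ran from 15645261 to 17591718, and mitochondrially encoded genes took 10.2% to 12.1% of them. That share was high (11.4% to 12.1%) in OE-circSHPRH replicates 1 and 2 and OE-NC replicate 3, and low (10.2% to 10.3%) in the other 3 libraries. Both classes thus held libraries of both groups, but in unequal numbers. SHPRH, the host gene of the circular RNA, averaged 72.9 CPM (counts scaled to the TMM-adjusted library total) in OE-circSHPRH and 25.1 CPM in OE-NC. A count per gene does not separate the linear SHPRH transcript from the circular RNA. All 8 adrenergic neuroblastoma markers were tested, and their mean levels ran from 3.41 FPKM (TH) to 446 FPKM (PHOX2A), the deposited count per length of exon and library size. Their summed level was 3566 to 3698 CPM in OE-circSHPRH and 3568 to 3621 CPM in OE-NC. The 7 mesenchymal markers tested summed to 806 to 882 CPM in OE-circSHPRH and 807 to 822 CPM in OE-NC. By the naming rule, DBH (log2 fold change 0.15, edgeR adjusted p = 0.149) and CHGA (-0.16, adjusted p = 0.168) stand for the first list and YAP1 (-0.19, adjusted p = 0.346) and CD44 (0.52, adjusted p = 0.361) for the second, and no marker passed. Of the 7 mesenchymal markers tested, 6 lay above 0 (median log2 fold change 0.09) and YAP1 was the 1 below it. The adrenergic markers had 4 on each side (median 0.04). Over all 16458 genes tested, 8357 lay above 0 (median 0.0018). SNAI2 stayed under the filter, with 4 to 12 counts per OE-circSHPRH library and 5 to 9 per OE-NC library, and PRRX1 was not analysed here. In bulk RNA, fewer cells of a type and less RNA per cell cannot be told apart.

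PHF19 had the most negative log2 fold change of the 10 transcripts, OE-circSHPRH over OE-NC, and was the 1 that passed the test. PHF19 (ENSG00000119403, chromosome 9, 120855652 to 120894896, minus strand, GRCh38) encodes a Polycomb-like protein that reads methylated H3K36 through its Tudor domain. Its TMM-scaled CPM was 20.17, 19.87 and 19.98 in OE-circSHPRH replicates 1 to 3, against 26.8, 25.7 and 25.8 in OE-NC replicates 1 to 3. Every OE-circSHPRH library was below every OE-NC library, as was the case for 7.57% of all genes tested (15.6% in either direction). The means were 20.01 ± 0.150 CPM in OE-circSHPRH and 26.1 ± 0.626 CPM in OE-NC (SD, n = 3 each), and the raw counts behind them were 343, 308 and 333 in OE-circSHPRH against 424, 452 and 451 in OE-NC. The log2 fold change was -0.38 (SE 0.078), a change of -23.3% with a 95% interval from -31.5% to -14.2%. The adjusted p by which it was chosen was 0.0493 (quasi-likelihood test in edgeR, Benjamini-Hochberg adjustment over all genes tested), the last rank (31) among the 31 of 16458 genes that passed, or 0.188%. Genes that passed and fell made up 0.0608%.

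The libraries of a group lay closer together for PHF19 than counting alone would give. PHF19 was chosen by its adjusted p, and such a choice can favour genes whose libraries lie close together. The coefficient of variation of its CPM was 0.751% in OE-circSHPRH and 2.40% in OE-NC, where counts of this size carry a counting error of 5.52% in OE-circSHPRH and 4.75% in OE-NC. The SD between these libraries was thus below counting error. The edgeR standard error starts from a model of counting error, with a spread estimated partly from these libraries and partly from all genes. It may therefore be low as well. Among the 2435 genes tested within 0.5 log2 CPM of PHF19, the log2 fold changes had an SD of 0.12, and 99.3% were smaller in size than that of PHF19. PHF19 was chosen partly by its fold change, so this place follows from the choice. Within the low-share libraries (1 OE-circSHPRH against 2 OE-NC) its difference in log2 CPM was -0.39, and within the high-share libraries (2 against 1) it was -0.36. With each library left out in turn the log2 fold change stayed between -0.39 and -0.36. The adjusted p was 0.0199 without OE-circSHPRH replicate 3. It was 0.0910 without OE-circSHPRH replicate 1, 0.293 without OE-circSHPRH replicate 2, 0.317 without OE-NC replicate 1, 0.162 without OE-NC replicate 2 and 0.136 without OE-NC replicate 3. The direction held in all 6 of these fits and the call in 1. The call was also lost with limma-voom (adjusted p = 0.0523), with DESeq2 without independent filtering (0.138) and with a replicate block in edgeR (0.278), and DESeq2 with that filtering gave PHF19 no adjusted p.

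**Figure D1:**
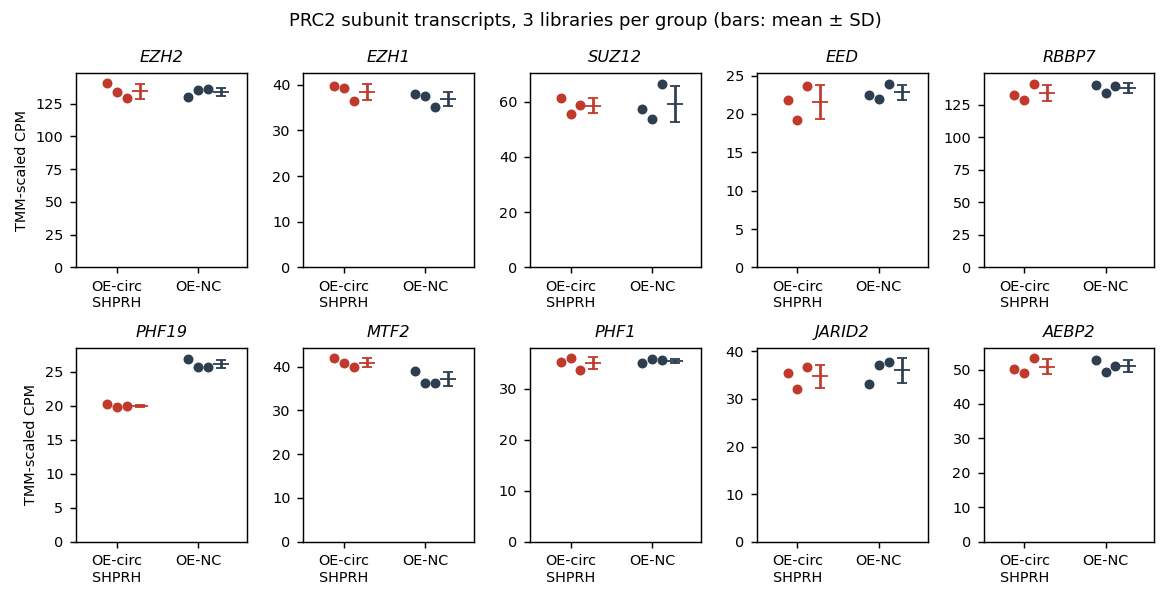
TMM-scaled CPM of the 10 PRC2 transcripts (vertical axes, from 0), with OE-circSHPRH libraries in red on the left of each panel and OE-NC libraries in dark blue on the right; points are libraries in replicate order and bars are the mean ± SD (n = 3). PHF19 lies at 19.9 to 20.2 CPM in OE-circSHPRH and at 25.7 to 26.8 CPM in OE-NC, and MTF2 is the other panel in which the groups do not overlap.

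PHF19 has 2 transcription starts in the RefSeq windows used here (GRCh38.p14). The 250 bases before the upstream of these 2, at position 120877188, are shown because they hold the letters of an E2F-like element. The deposited gene reaches further upstream, to position 120894896, where no window was searched. E2F proteins are transcription factors of S-phase genes. The capitals mark the match, GCGGGAAA, which is the reverse complement of TTTCCCGC and begins 152 bases before the start. The stretch is 79.2% G and C.
PHF19 (chr9:120877189-120877438, minus strand): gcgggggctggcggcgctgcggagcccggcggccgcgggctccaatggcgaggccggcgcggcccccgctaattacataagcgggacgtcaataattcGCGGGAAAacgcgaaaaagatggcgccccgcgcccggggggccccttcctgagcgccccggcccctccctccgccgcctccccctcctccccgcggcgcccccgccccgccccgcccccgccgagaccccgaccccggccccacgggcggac
The window of the other PHF19 start, at 120868911, held no such match. The table of counts does not separate transcripts from different starts, and GENCODE release 29 lists 14 PHF19 transcripts, 8 of them coding.

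The same letters were searched in RefSeq windows of 300 bases (250 before and 50 after each start) for all 10 members, which had 14 windows. The search took TTTCCCGC, TTTCGCGC, TTTGCCGC and TTTGGCGC on both strands. A match lay in 6 of the 14 windows (42.9%), those of 6 different members, against 3.31% of all 35116 windows. Those windows include genes that were not tested. By gene a match was found in 6 of the 10 members, against 6.50% of the 10853 tested genes whose symbol had a window. The windows compared were not matched for base composition, and the difference was not tested. For comparison between members, 30 bases around each match are given with the match in capitals, 5′ to 3′ on the strand of the gene.
PHF19 (chr9:120877322-120877351, minus strand): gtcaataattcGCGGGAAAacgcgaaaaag
MTF2 (chr1:93079277-93079306, plus strand): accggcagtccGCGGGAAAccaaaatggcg
EZH2 (chr7:148884272-148884301, minus strand): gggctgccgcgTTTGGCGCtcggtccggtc
EZH1 (chr17:42745137-42745166, minus strand): gcggggttttgGCGGCAAAtgacagtagtg
SUZ12 (chr17:31936807-31936836, plus strand): cgacccctaatTTTCCCGCgaattcagttc
AEBP2 (chr12:19440438-19440467, plus strand): caaggcgacgtTTTGCCGCgatccccctgc
PHF19 and MTF2 carried the same 8 letters on the same strand, and SUZ12 carried their reverse complement. The match lay in front of the start in PHF19, EZH1, SUZ12 and AEBP2 and behind it in MTF2 and EZH2. EED, RBBP7, PHF1 and JARID2 had none in these windows. The element CHR (TTTGAA, both strands) was found in 1 member, SUZ12, and in 13.4% of the tested genes with a window. The NF-Y element (CCAAT, both strands) was found in 6 members and in 43.0% of those genes. No match of 1 motif shared a base with a match of another. These are matches of letters. They were present in PHF19, which was lower in OE-circSHPRH, and in 5 members that did not pass the test.

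The catalytic and core subunits did not pass the test in either direction. EZH2 (ENSG00000106462, chromosome 7, 148807383 to 148884321, minus strand), the main methyltransferase, had 141, 134 and 129 CPM in OE-circSHPRH and 130, 135 and 136 CPM in OE-NC. The groups overlapped, with the highest and the lowest library both in OE-circSHPRH. The log2 fold change of EZH2 was 0.0060 (SE 0.047, edgeR adjusted p = 0.987), and the 95% interval of the change ran from -6.22% to 7.52%. EZH1 (ENSG00000108799, chromosome 17, 42700275 to 42745049, minus strand), the paralog with weaker methyltransferase activity, had 39.8, 39.2 and 36.5 CPM in OE-circSHPRH against 37.8, 37.5 and 35.001 CPM in OE-NC. The ranges overlapped, and the log2 fold change was 0.07 (SE 0.067, edgeR adjusted p = 0.807). In each library EZH2 made up most of the summed FPKM of this pair, 84.4% ± 0.267 in OE-circSHPRH and 84.9% ± 0.800 in OE-NC (SD, n = 3 each). The difference of -0.52 percentage points gave p = 0.4 (exact permutation test, two-sided), in a design whose smallest possible p is 0.1.

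SUZ12 (ENSG00000178691, chromosome 17, 31937018 to 32001045, plus strand) had 61.2, 55.7 and 58.9 CPM in OE-circSHPRH and 57.2, 53.7 and 66.3 CPM in OE-NC. The OE-NC libraries alone spanned a wider range than the OE-circSHPRH libraries, and the log2 fold change was -0.01 (SE 0.071, edgeR adjusted p = 0.981). Its partial copy SUZ12P1, a transcribed pseudogene also on chromosome 17, had 187 to 262 counts per library, and reads of the pair could have been assigned to either, so the level of SUZ12 is uncertain to that extent. EED (ENSG00000074266, chromosome 11, 86244544 to 86278813, plus strand) had 21.8, 19.2 and 23.6 CPM in OE-circSHPRH against 22.5, 22.0 and 23.9 CPM in OE-NC. The ranges overlapped, and OE-circSHPRH replicate 2 was the lowest library. For EED the log2 fold change was -0.08 (SE 0.089, edgeR adjusted p = 0.824). RBBP7 (ENSG00000102054, chromosome X, 16839283 to 16870414, minus strand) had 132, 129 and 141 CPM in OE-circSHPRH and 140, 134 and 140 CPM in OE-NC, which overlapped, and the log2 fold change of RBBP7 was -0.04 (SE 0.047, edgeR adjusted p = 0.825). RBBP7 shares 179 exon bases (2.42% of its own) with TXLNG on the opposite strand, and the strand setting of the counts is not given in the sources used here.

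MTF2 was the only other member whose groups did not overlap, and it lay in the opposite direction to PHF19. MTF2 (ENSG00000143033, chromosome 1, 93079235 to 93139081, plus strand), a second Polycomb-like protein, binds unmethylated CpG DNA. It had 41.9, 40.9 and 40.0 CPM in OE-circSHPRH against 39.0, 36.3 and 36.1 CPM in OE-NC. Every OE-circSHPRH library was above every OE-NC library, as was the case for 7.99% of all genes tested. Its log2 fold change of 0.14 (SE 0.064) had an unadjusted p of 0.0424 in edgeR and did not pass after adjustment (adjusted p = 0.460). The difference in log2 CPM was 0.08 among low-share libraries and 0.20 among those with a high share. PHF1 (ENSG00000112511, chromosome 6, 33410399 to 33416453, plus strand), the third Polycomb-like protein, had 35.2, 36.1 and 33.8 CPM in OE-circSHPRH and 34.999, 35.8 and 35.6 CPM in OE-NC. The OE-NC values fell inside the range of the OE-circSHPRH values, and the log2 fold change was -0.02 (SE 0.065, edgeR adjusted p = 0.952). PHF1 shares 12 exon bases with CUTA on the opposite strand.

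The makeup of the Polycomb-like transcripts differed between the groups, while their sum was close in deposited FPKM. On the deposited FPKM values, PHF19 made up 15.1%, 14.8% and 15.5% of the summed level of PHF19, MTF2 and PHF1 in OE-circSHPRH replicates 1 to 3, against 19.6%, 19.2% and 19.3% in OE-NC. The means were 15.1% ± 0.349 in OE-circSHPRH and 19.4% ± 0.220 in OE-NC (SD, n = 3 each), a difference of -4.22 percentage points that follows from the choice of PHF19 and has no test. These shares depend on the length used: per kilobase of the median coding transcript, which includes partial models and has 862 bases for PHF19, PHF19 made up 41.1% ± 0.703 in OE-circSHPRH and 48.2% ± 0.487 in OE-NC. On that scale PHF1 made up 40.5% ± 0.768 in OE-circSHPRH and 36.9% ± 0.926 in OE-NC. On the deposited scale the MTF2 share was 35.3% ± 0.469 in OE-circSHPRH and 31.4% ± 0.963 in OE-NC, and the PHF1 share was 49.6% ± 0.708 in OE-circSHPRH and 49.2% ± 1.18 in OE-NC. The summed level was 19.4 ± 0.452 FPKM in OE-circSHPRH and 19.8 ± 0.262 FPKM in OE-NC. That sum also depends on the length used, and it was not taken per kilobase of the median coding transcript. Set against JARID2 and AEBP2, the Polycomb-like transcripts took 59.2% ± 1.79 of the summed FPKM in OE-circSHPRH and 59.3% ± 0.764 in OE-NC. That difference was smaller than the spread between libraries of a group.

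**Figure D2:**
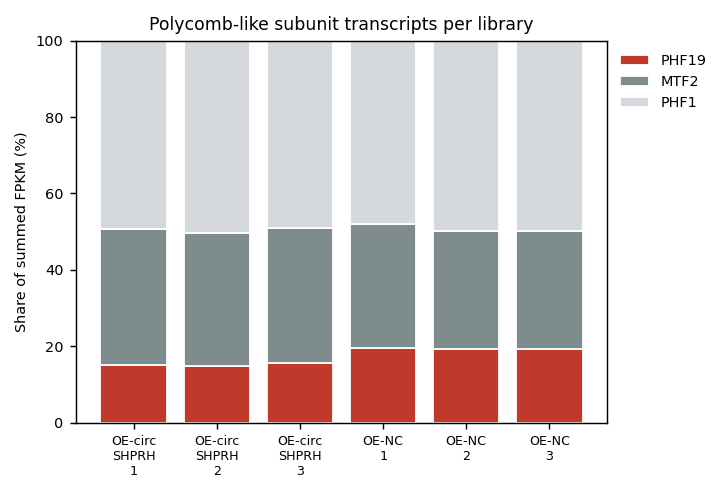
Share of PHF19 (red, bottom), MTF2 (grey, middle) and PHF1 (light grey, top) in their summed deposited FPKM, in percent, for each OE-circSHPRH library (left) and each OE-NC library (right). The red PHF19 part is 14.8% to 15.5% in OE-circSHPRH and 19.2% to 19.6% in OE-NC.

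The subunits of the other accessory form did not pass. JARID2 (ENSG00000008083, chromosome 6, 15246296 to 15522040, plus strand), a relative of histone demethylases that lacks their activity, had 35.4, 32.1 and 36.7 CPM in OE-circSHPRH and 33.0, 37.1 and 37.7 CPM in OE-NC. The groups overlapped, and the log2 fold change was -0.05 (SE 0.074, edgeR adjusted p = 0.873). AEBP2 (ENSG00000139154, chromosome 12, 19404045 to 19720801, plus strand), a zinc finger protein of the complex, had 50.1, 49.0 and 53.5 CPM in OE-circSHPRH against 52.7, 49.3 and 51.2 CPM in OE-NC. These ranges overlapped too, and the log2 fold change was -0.0049 (SE 0.060, edgeR adjusted p = 0.992). Of the 10 members, 7 lay below 0 and 3 above it, where 8101 of all 16458 genes tested lay below 0. The median log2 fold change of the members was -0.02, against 0.0018 over all genes tested. The median counts PHF19, which was chosen. For the members other than PHF19 and MTF2, the outermost bounds of the 95% intervals were a change of -16.9% (EED) and one of 15.2% (EZH1).

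**Figure D3:**
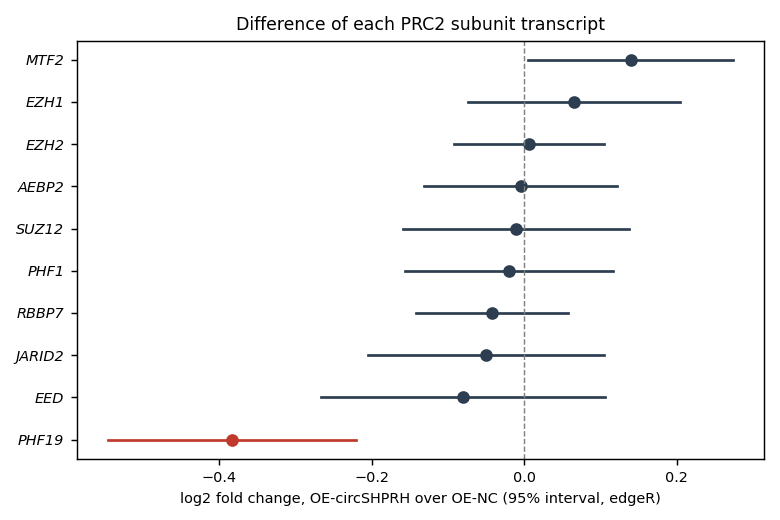
Log2 fold change of each PRC2 transcript, OE-circSHPRH over OE-NC (horizontal axis), with its 95% interval from edgeR; members run from the lowest value at the bottom to the highest at the top, and the dashed line is 0. PHF19 (red) lies at -0.38, MTF2 at 0.14 with an interval that starts just above 0, and the intervals of the other 8 include 0.

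Levels were compared between subunits only per length. On the deposited FPKM values, which divide by all annotated exons of a gene, EZH2 stood highest with 29.4 ± 1.30 FPKM in OE-circSHPRH and 29.3 ± 0.712 FPKM in OE-NC (SD, n = 3 each), above 91.5% of all genes tested. RBBP7 followed with 17.9 ± 0.813 FPKM in OE-circSHPRH and 18.5 ± 0.492 FPKM in OE-NC. PHF1, SUZ12, AEBP2, MTF2, JARID2 and EZH1 came next, with means between 9.63 and 5.45 FPKM in OE-circSHPRH and between 9.76 and 5.21 FPKM in OE-NC. Neighbours in that order overlapped for PHF1 and SUZ12 in OE-NC, for MTF2 and JARID2 in OE-NC, and for JARID2 and EZH1 in OE-circSHPRH. PHF19 and EED were at the low end. PHF19 had 2.94 ± 0.0252 FPKM in OE-circSHPRH and 3.84 ± 0.0938 FPKM in OE-NC, and EED had 3.04 ± 0.308 FPKM in OE-circSHPRH and 3.22 ± 0.138 FPKM in OE-NC. The 2 genes overlapped in OE-circSHPRH, while in OE-NC every library had more PHF19 than EED. PHF19 stood above 43.0% of all genes tested.

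This order depends on the length used. Per kilobase of the longest coding transcript in GENCODE release 29, RBBP7 came before EZH2, and PHF19 was last, with 4.72 ± 0.0354 CPM per kb in OE-circSHPRH and 6.16 ± 0.148 CPM per kb in OE-NC (SD, n = 3 each). By the median coding transcript PHF19 would instead stand above MTF2 in both groups and above PHF1 in OE-NC, and within the SD of PHF1 in OE-circSHPRH, as the shares above show, so its low place among the subunits turns with the length chosen. By the longest, EED moved up to 9.69 ± 0.985 CPM per kb in OE-circSHPRH and 10.3 ± 0.435 CPM per kb in OE-NC, since its longest coding transcript has 2223 bases and all its exons together have 7016. On the scale of the longest coding transcript PHF19 overlapped its neighbour JARID2 in OE-NC and lay below it in every OE-circSHPRH library. EZH2 stayed several-fold above EZH1 on both scales, with 85.97% of the pair in OE-circSHPRH and 86.4% in OE-NC by the longest coding transcript.

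**Figure D4:**
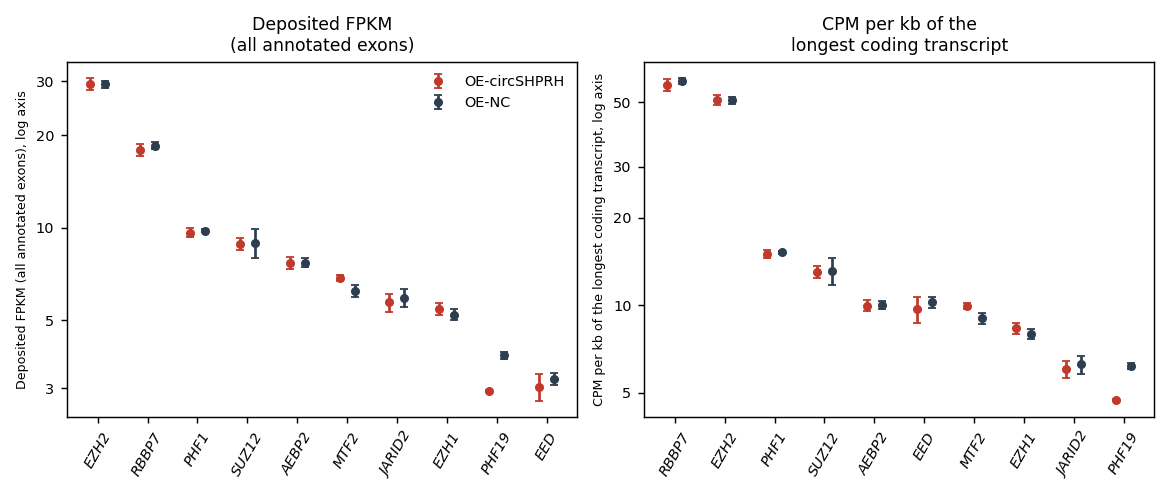
Level per length of each PRC2 transcript (mean ± SD of 3 libraries, logarithmic vertical axes) in OE-circSHPRH (red, left of each pair) and OE-NC (dark blue), as deposited FPKM in the left panel and as CPM per kilobase of the longest coding transcript in the right panel; genes are ordered by the mean of 6 libraries. EZH2 and RBBP7 lead in both panels, while EED is last in the left panel and PHF19 is last in the right.

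Likeness to PHF19 was measured as Pearson r of log2 CPM over the 6 libraries, which takes in the group difference itself. Over the 10354 other protein-coding genes with a mean log2 CPM of at least 3, 50 had a Pearson r with PHF19 above 0.95, across 6 libraries that share the 2 groups. The 5 highest were MANBAL (0.993), PELP1 (0.988), MCM2 (0.987), FIGNL1 (0.984) and MND1 (0.983). MCM2, a subunit of the replicative helicase, averaged 49.99 ± 1.03 CPM in OE-circSHPRH and 63.6 ± 2.40 CPM in OE-NC (SD, n = 3 each), with an edgeR adjusted p of 0.0140. PELP1, a chromatin-associated coregulator, averaged 109 ± 1.31 CPM in OE-circSHPRH and 127 ± 2.52 CPM in OE-NC, and did not pass (edgeR adjusted p = 0.0537). The log2 fold change of FIGNL1, an ATPase of homologous recombination, was -0.25 (SE 0.085), and that of MND1, a meiotic recombination factor, -0.30 (SE 0.13). For MANBAL it was -0.08 (SE 0.052), and none of these 3 passed in edgeR. Among the PRC2 members, MTF2 had the most negative r with PHF19 (-0.81) and RBBP7 the highest (0.47). EZH2 had -0.10.

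Proliferation markers were set beside PHF19. Of 12 listed and tested, 10 lay below 0 (median log2 fold change -0.12), against 8101 of all 16458 genes tested. MCM2 was the 1 that passed and fell, with an adjusted p of 0.0140 in edgeR. Named after their values were seen, the proliferation antigen MKI67 was at -0.37 (SE 0.10, edgeR adjusted p = 0.168) and RRM2, a subunit of ribonucleotide reductase, at -0.32 (SE 0.097, adjusted p = 0.219), and neither passed. Taken singly, 6 of the 12 had groups that did not overlap, against 15.6% of all genes tested. Summed over the list, the level was 498 to 521 CPM in OE-circSHPRH and 545 to 576 CPM in OE-NC, so that the groups did not overlap. EZH2, often grouped with proliferation genes but not on this list, had overlapping groups. The part of proliferation in the PHF19 difference was not tested.

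The other genes of the PRC2 pathway were taken from lists, of which 6 further PRC2 subunits or inhibitors were tested and none passed. RBBP4, the close relative of RBBP7 and present in the same place of the complex, was at 0.09 on the log2 fold change scale (SE 0.041, edgeR adjusted p = 0.467). EPOP, a partner of the Polycomb-like form, had -0.16 (SE 0.084, adjusted p = 0.529). Of the others, named after their values were seen, LCOR, whose locus encodes a further partner of that form, had -0.07 (SE 0.058), LCORL had 0.03 (SE 0.088) and SKIDA1 had -0.01 (SE 0.13). CXorf67, the older symbol of EZHIP, an inhibitor of EZH2, had 17 to 34 counts per OE-circSHPRH library and 20 to 25 per OE-NC library, and a log2 fold change of 0.06 (SE 0.34). The median of these 6 was 0.0093.

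PRC1, the complex that ubiquitinates histone H2A and in its canonical forms reads the PRC2 mark, did not pass at any member. Of 14 canonical PRC1 genes tested, 10 were negative with a median of -0.06. Over all 16458 genes tested, 8101 were negative and the median was 0.0018. SCMH1, a Sex comb protein, had the lowest adjusted p of them (log2 fold change -0.27, SE 0.060, edgeR adjusted p = 0.0869), with 57.0 ± 2.75 CPM in OE-circSHPRH and 68.5 ± 3.69 CPM in OE-NC (SD, n = 3 each). PHC3, a Polyhomeotic protein, had -0.21 (SE 0.077, adjusted p = 0.322). Of 14 variant PRC1 genes, 9 were negative with a median of -0.03. Among these PCGF3 had 0.18 (SE 0.050, adjusted p = 0.169) and PCGF6 had -0.27 (SE 0.11, adjusted p = 0.353). The 2 are RING-finger partners of different variant complexes.

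Enzymes that remove or oppose the Polycomb marks did not pass either. For comparison with the lists below, 8101 of all 16458 genes tested were negative, with a median log2 fold change of 0.0018. Of the 10 genes of PR-DUB, the complex that removes ubiquitin from H2A, 7 were negative with a median of -0.02, and the lowest p-values were those of OGT (-0.07, SE 0.040, edgeR adjusted p = 0.608) and FOXK2 (-0.06, SE 0.043, adjusted p = 0.701). Of 9 H3K27 demethylases, H3K36 methyltransferases and H3K27 acetyltransferases, 8 were negative with a median of -0.05. The H3K36 methyltransferase genes NSD3 (-0.15, SE 0.046, adjusted p = 0.240) and NSD1 (-0.13, SE 0.055, adjusted p = 0.421) had the lowest p-values there. Of 11 genes of the H3K4 methyltransferase complexes, 8 were negative with a median of -0.05, led by KMT2D (-0.14, SE 0.046, adjusted p = 0.260) and WDR5 (-0.11, SE 0.053, adjusted p = 0.503). Complexes that share RBBP7 and RBBP4 with PRC2 (NuRD, CAF-1 and Sin3) had 9 of 15 negative with a median of -0.02. CHAF1B, a subunit of the replication-coupled chromatin assembly factor, had -0.30 (SE 0.12, adjusted p = 0.390), and CHD3, a remodeller of NuRD, had -0.08 (SE 0.048, adjusted p = 0.608).

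Genes known as Polycomb targets gave no call in edgeR. Of 4 genes known to be repressed by EZH2 in neuroblastoma, 3 were tested and RUNX3 was not analysed here. CLU, which encodes the chaperone clusterin, averaged 65.6 ± 2.79 CPM in OE-circSHPRH and 56.2 ± 1.56 CPM in OE-NC (SD, n = 3 each). Every OE-circSHPRH library was above every OE-NC library, as was the case for 7.99% of all genes tested. The log2 fold change of CLU was 0.22 (SE 0.057, edgeR adjusted p = 0.131). By p, CASZ1 came next and NGFR last. CASZ1, a zinc finger factor, had -0.19 (SE 0.12, adjusted p = 0.621). Its groups did not overlap either, in the opposite direction to CLU, as for 7.57% of all genes tested. NGFR, the low-affinity neurotrophin receptor, had 0.28 (SE 0.23, adjusted p = 0.738), and its groups overlapped. Of 24 developmental regulators from a general list of Polycomb targets, 13 had enough counts to be tested. Among these, 8 were negative with a median of -0.03, against 8101 of all 16458 genes tested. IRX3 (-0.30, SE 0.15, adjusted p = 0.513) and MSX1 (-0.30, SE 0.20, adjusted p = 0.642) had the lowest p-values. Not all of that list is silent in SH-SY5Y: FOXC1 stood at 91.9 FPKM and GATA4 at 23.1 FPKM on average over the 6 libraries, both named after their values were seen. PAX6, chosen in the same way, had 0 to 2 counts per OE-circSHPRH library and 1 to 2 per OE-NC library.

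**Figure D5:**
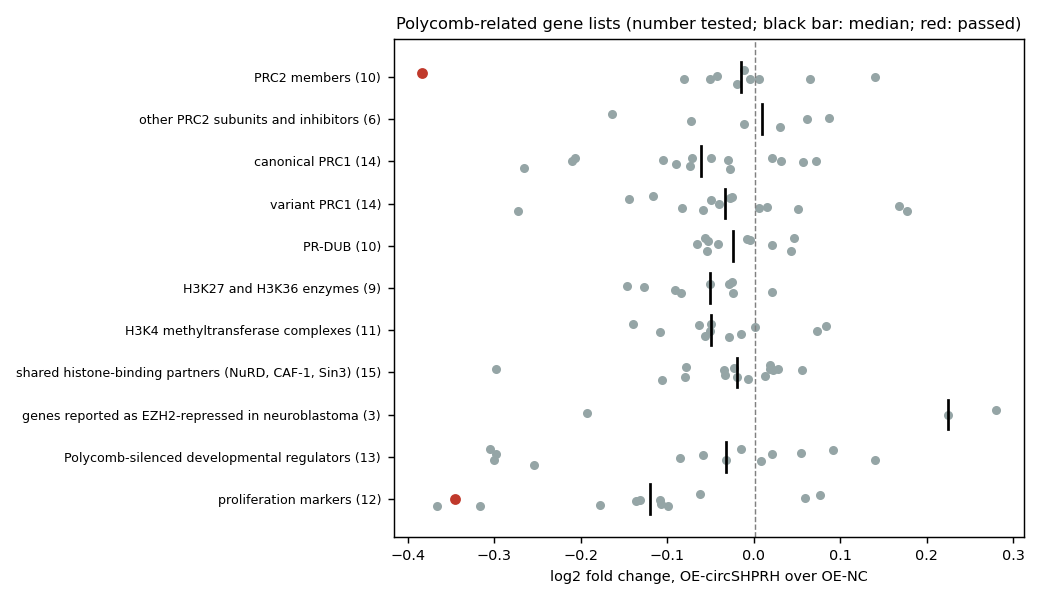
Log2 fold change, OE-circSHPRH over OE-NC (horizontal axis), of each tested gene in the PRC2 set and 10 further lists (vertical axis, with the number tested); black bars are list medians, the dashed line is the median of all genes tested, and red points passed edgeR at an adjusted p under 0.05. PHF19 at -0.38 and MCM2 at -0.35 are the red points, and the list medians lie between -0.12 for proliferation markers and 0.22 for the 3 EZH2-repressed genes.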

How the data were processed

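RNA sequencing was compared between OE-circSHPRH and OE-NC SH-SY5Y cells, 3 libraries each, grouped by sample title. Per the labels, libraries came from TRIzol total RNA with a SMARTER mRNA-Seq kit. The deposited table holds raw counts per gene, a size-factor-scaled count signal, and FPKM values that the authors made from counts and gene length. It also holds the authors' own comparison as a log2 fold change with p-values, used here only as a description. The sources used here do not state the aligner, the counting tool, the strand setting or the test. The deposited p-values differed from those of DESeq2 run here by at most 6.4e-06, so they are not separate evidence. The submitters' processing notes name GRCh37, but 28746 of 28752 deposited coordinates were identical to GENCODE release 29 on GRCh38, and the deposited gene length equalled the union of its exons for as many.

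Counts were filtered with filterByExpr of edgeR 4.0.16 (minimum count 10, minimum total 15), which kept 16458 genes with 99.8% of the counts. They were scaled with TMM and tested with edgeR's quasi-likelihood test, two-sided, in R 4.3.3, with Benjamini-Hochberg adjustment over all genes tested at 0.05. The standard error is the absolute log2 fold change over the square root of F. Alternatives were DESeq2 1.42.0, limma 3.58.1 (voom), another scaling, no filter, a replicate block, a library class term and each library left out. The code was tested on simulated counts. Library pairs within a group differed by 2.14 to 7.23 times the chi-square of sampling noise, so none was a repeat deposit. Library totals of 15645261 to 17591718 make 1 count equal to 0.0568 to 0.0639 CPM. Log2 CPM used a prior count of 2.

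The members, the gene lists and the naming rule were chosen with earlier results of these data known. The rule names all members and, per list, genes that passed or else the 2 with the smallest p. It also names the 5 protein-coding genes most like PHF19 by Pearson r. Sequences are from RefSeq, GRCh38.p14.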

Additional observations from a re-analysis of the deposited data

How the results depend on the processing

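All values are OE-circSHPRH against OE-NC. PHF19 kept its direction under all 13 alternatives (log2 fold change -0.39 to -0.36). It also passed with DESeq2 size factors in edgeR (edgeR adjusted p = 0.0494), with no filter on low counts (0.00863) and with the mitochondrial share class as a term (0.0192). It did not pass with limma-voom (0.0523) or DESeq2 without independent filtering (0.138, chosen after seeing the data), and DESeq2 with independent filtering gave it no adjusted p, so 0 members passed there. No member rose under any alternative. With each library left out, 0 to 1 members fell, 4 to 142 genes rose and 1 to 169 fell over all genes, and 0 to 5 genes of the further lists passed. Without OE-circSHPRH replicate 3, 142 rose and 169 fell, and the cause was not tested. Against 21 genes that rose and 10 that fell, there were 116 and 78 with no filter, 49 and 28 with DESeq2, and 104 and 67 with the class term. Of the further lists 3, 3 and 4 genes passed in these 3 settings, against 1. Same-numbered libraries had correlations of their deviations of -0.044, -0.027 and -0.11, so no pairing by replicate number was visible. With 3 libraries per group these values cannot show whether replicates were handled in pairs. With the replicate block 4 genes rose and 2 fell, with 0 members (PHF19 adjusted p = 0.278) and 0 listed genes passing, and fewer residual degrees of freedom by construction.

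Members near 0 changed sign. With the class term EZH2 was at -0.015 and AEBP2 at 0.012. With a library left out, EZH2 ran from -0.028 to 0.035, SUZ12 from -0.076 to 0.079, JARID2 from -0.107 to 0.0020, AEBP2 from -0.042 to 0.020 and PHF1 from -0.041 to 0.0055. The difference in the PHF19 share was -5.58 percentage points on counts, -4.35 with the longest and -7.04 with the median coding transcript length, both chosen after seeing the data. The last length includes partial transcript models. Counts per library were 298 to 418 for EED and 308 to 452 for PHF19, which limits the precision of both.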

Other observations

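The authors' deposited table gives PHF19 a p-value of 0.000334, rank 69 of 28752 genes, and an adjusted p of 1. In that table the adjusted p is 1 for 21740 genes and below 1 for 7012, and the split follows abundance: no gene with an adjusted p of 1 had a mean normalized count above 500.3, and none of the others was below it. PHF19, with a mean of 383 in the authors' deposited table, and EED, with 368, are the 2 members on the low side. There were 12 genes with an adjusted p of 1 and a p-value under 0.001 in the authors' deposited table. DESeq2 run here on the same counts gave 22297 genes, PHF19 among them, no adjusted p, against 1 gene when its independent filtering was off. A list made from the deposited adjusted p alone would therefore not hold PHF19, whatever its p-value.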
